A study of Homo sapiens with 12 samples.

Results

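The response of SW48 cells to myricone C was followed across every gene of the SW48 expression table. SW48 is an established human colorectal adenocarcinoma cell line, labelled WT, and myricone C is, per the title of the series, a neolignan of the nutmeg tree Myristica fragrans. The comparison took the 3 libraries of cells given 10 µM myricone C against the 3 libraries of cells given the vehicle, 0.1% DMSO, all at 48 h. These are 6 of the 12 libraries of the series, and the table holds 11554 of the 12372 genes measured in the series as a whole. Of these 11554 genes, 1302 are not listed for the gastric line of the series, and no values were compared between the lines. The labels call the replicates biological, give a single wild-type line as the model and state no DMSO content for the treated cells. Both groups are bulk cultures, so fewer cells of a kind and less RNA per cell cannot be told apart.

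As background, cells meet stress in the endoplasmic reticulum and shortage of amino acids through kinases that phosphorylate the translation factor eIF2. Translation then slows in general, while the mRNA of the transcription factor ATF4 is translated more, and ATF4 with its partners drives genes for amino acid uptake, amino acid synthesis and the loading of tRNA. A separate arm, through ATF6 and the spliced form of XBP1, drives chaperones of the endoplasmic reticulum. Colorectal tumour cells usually carry an active WNT pathway and divide quickly, so that stem cell genes and genes of the cell cycle are prominent in untreated cultures. The title of the series names ER stress and inhibition of ROCK, the kinases ROCK1 and ROCK2, as its subjects.

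The deposited values are an expression signal with no stated unit, and the table keeps genes above 1 in each of the 6 libraries, with 1.00003 the lowest value. A gene that was silent in either group is therefore not listed. Summed signal per library ran from 477551 to 536594, and read depth is unknown. Of 10 markers fixed for colonic epithelium, 5 were listed, among them CDX2, HNF4A, CDH17 and EPCAM, while CDX1, VIL1, GPA33, LGALS4 and KRT20 were not. EPCAM, a surface protein of epithelial cells, read 214, 243 and 242 in vehicle cells and 168, 201 and 211 in treated cells. No leukocyte or stomach marker of the fixed lists was in the table, and of the fibroblast and endothelial list only SNAI1 was.

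Myricone C replicate 1 stood apart from the other libraries before any gene was tested. RN7SL1, which encodes the 7SL RNA of the signal recognition particle, read 418, 397 and 166 in vehicle cells, 11027 in myricone C replicate 1, and 261 and 94.0 in the other treated libraries. RN7SK, the RNA that holds the elongation kinase P-TEFb inactive, read 15.4, 6.79 and 9.09 in vehicle cells, 882 in replicate 1, and 9.94 and 8.42 in replicates 2 and 3. The 23 listed genes of 7SL, 7SK and small nuclear or nucleolar RNA took 0.217%, 0.220% and 0.103% of the summed signal in vehicle cells and 5.28%, 0.180% and 0.0733% in treated cells. Nearly all of this share in replicate 1 was 7SL and 7SK, which took 5.23% there. The groups overlapped and the difference in this share did not pass an exact permutation test (two-sided p = 0.9, with 0.1 the smallest value that 3 libraries against 3 allow). None of the 23 genes passed the test across genes, and the near-identical 7SL copies share reads. Each result below is therefore given for all 6 libraries, with its value without replicate 1 where the fits are set side by side.

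**Figure D1:**
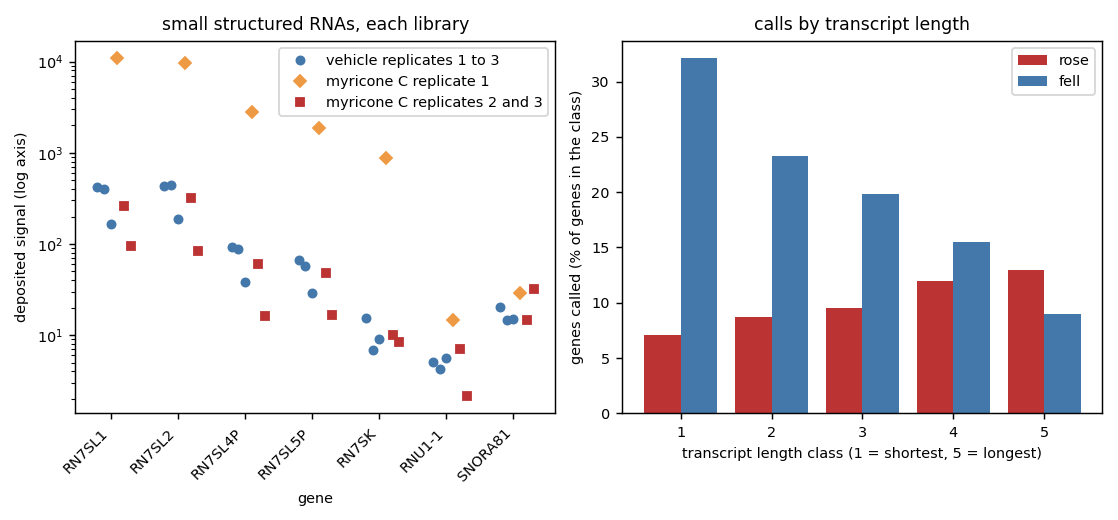
Left, deposited signal (log axis) of 7 small structured RNAs in each of the 6 SW48 libraries: RN7SL1 reaches 11027 and RN7SK 882 in myricone C replicate 1, far above the other 5 libraries. Right, share of genes that rose or fell (% of the genes in a class) in 5 equal classes of transcript length, from the shortest genes (7.1% rose, 32.1% fell) to the longest (13.0% rose, 9.0% fell).

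With all 6 libraries, 3383 of 11554 genes changed at an adjusted p under 0.05 (29.3%), 1170 upward (10.1%) and 2213 downward (19.2%), by limma on log2(signal + 1) with Benjamini-Hochberg adjustment. The median log2 change of all genes was -0.08. These shares and this median are the background for the list counts below. Scaling moved the balance of the calls: 1515 genes rose and 1765 fell after quantile normalization, and 1479 rose and 1703 fell when the libraries were rescaled without the small RNAs and the mitochondrial pseudogenes, so that 34.6% of calls were rises in the deposited values, 46.2% after quantile normalization and 46.5% after rescaling. Without replicate 1, 3656 genes changed (31.6%), 1333 upward (11.5%) and 2323 downward (20.1%). The calls shared by both fits numbered 3116, all in the same direction, with 267 genes called only with replicate 1 and 540 only without it. Leaving out myricone C replicate 2 instead left 2199 changed genes.

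Changes in myricone C replicate 1 were smaller in size than those of its partners. Over the genes called without it, the median change of the rising genes was 0.45 in replicate 1 and 0.73 in the other pair, and that of the falling genes was -0.48 against -0.68. For replicate 2, over the genes called without that library, these medians were 0.94 against 0.79 and -0.86 against -0.68. For replicate 3 they were 0.87 against 0.79 and -0.65 against -0.70. All these changes are taken from the same vehicle mean and so share its error, they describe single libraries with no test, and the part of the small RNA content in them was not tested. In each comparison the genes were also picked by calls that used the pair and not the left-out library, which favours larger medians in the pair.

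**Figure D2:**
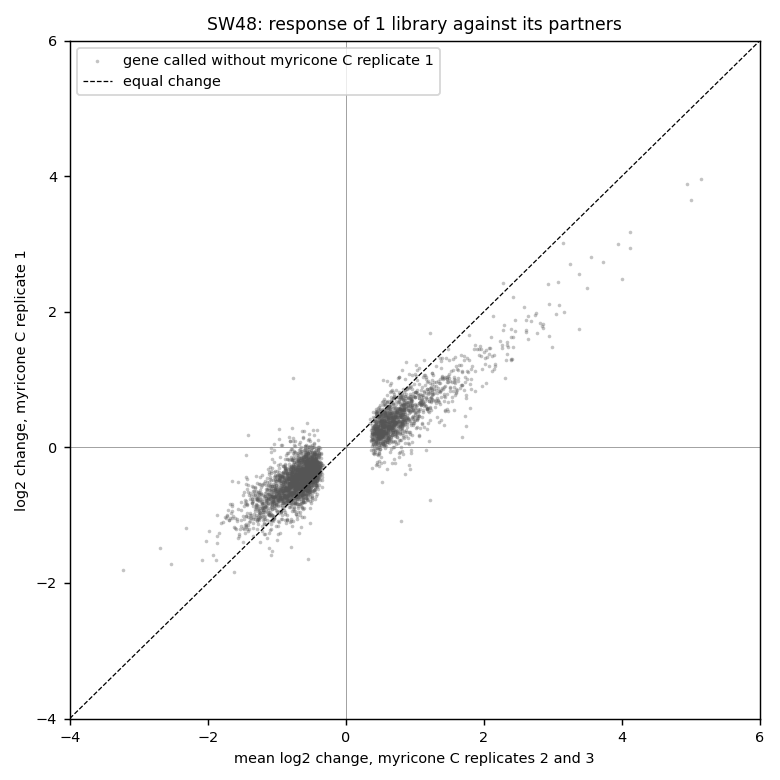
Log2 change from the vehicle mean in myricone C replicate 1 (vertical axis) against the mean log2 change of replicates 2 and 3 (horizontal axis), for the 3656 genes called without replicate 1, each point 1 gene. Both axes share the vehicle mean, and the genes were picked by calls that used replicates 2 and 3, which favours larger changes on the horizontal axis. The median of the rising genes is 0.45 on the vertical axis and 0.73 on the horizontal one, below the line of equal change (dashed).

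The largest rises joined stress regulators to secreted and signalling proteins. CHAC1, which degrades glutathione in the cytosol, read 1.38, 1.78 and 1.51 in vehicle cells and 36.7, 76.2 and 79.7 in treated cells, a log2 change of 4.60 ± 0.25 (SE, adjusted p = 4.78e-06). ERRFI1, an inhibitor of the EGF receptor, read 8.48, 6.03 and 10.6 against 50.5, 162 and 133, a change of 3.50 ± 0.35 (adjusted p = 0.000119). GDF15, a stress hormone of the TGF-beta family, read 23.5, 5.40 and 18.2 against 114, 189 and 262 (change 3.63 ± 0.42, adjusted p = 0.000241). Its low value in vehicle replicate 2 enlarges that change. In each of these genes replicate 1 was the lowest treated library and still lay above every vehicle library. HMOX1, the haem oxygenase, rose by 3.73 and PLAUR, the urokinase receptor, by 3.12.

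Among the largest falls were a tyrosine phosphatase, a growth factor and proteins of dividing cells. PTPRO, a receptor-type phosphatase, read 53.4, 80.4 and 54.4 in vehicle cells and 17.9, 8.33 and 11.6 in treated cells, a log2 change of -2.26 ± 0.24 (adjusted p = 0.000145). MDK, the secreted growth factor midkine, read 71.4, 64.4 and 48.0 against 18.5, 13.7 and 17.8 (change -1.81 ± 0.16, adjusted p = 7.91e-05). GPR15, a chemoattractant receptor known for homing of lymphocytes to the colon, read 377, 600 and 441 against 192, 133 and 126 (change -1.65 ± 0.19, adjusted p = 0.000229). No vehicle library overlapped a treated one in these 3 genes, as was the case in 5231 of all 11554 genes. PCLAF, a PCNA-binding protein, had a change of -1.81, NMU, a neuropeptide, of -1.69, and HOXB5, a homeobox factor, of -1.57.

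**Figure D3:**
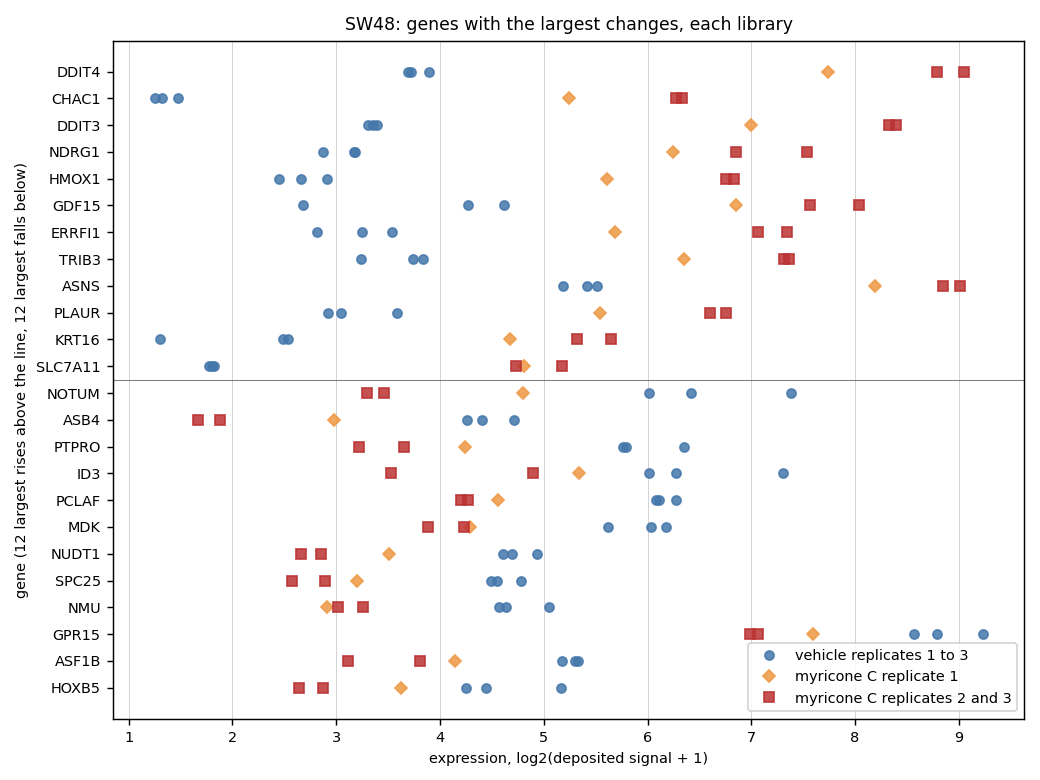
Expression, log2(deposited signal + 1), of the 12 genes with the largest rises (above the line) and the 12 with the largest falls (below it), each library a point: vehicle replicates 1 to 3 (blue circles), myricone C replicate 1 (orange diamonds) and replicates 2 and 3 (red squares). Treated and vehicle points do not overlap in any of the 24 genes, which were picked for large called changes. The groups were also apart in 5231 of all 11554 genes. CHAC1 runs from a signal of 1.38 in a vehicle library to 79.7 in a treated one.

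All 13 listed stress transcription factors rose, with a median log2 change of 1.67 beside -0.08 for all genes, and 2.03 without replicate 1. ATF4 itself read 133, 130 and 127 in vehicle cells and 353, 507 and 564 in treated cells, a change of 1.83 ± 0.16 (adjusted p = 5.75e-05). DDIT3, which encodes the stress factor CHOP, changed by 4.55 ± 0.29, TRIB3, a pseudokinase that restrains ATF4, by 3.40 ± 0.25, and CEBPB, a partner of ATF4, by 2.69 ± 0.30. CEBPG, another partner of ATF4, read 11.7, 12.1 and 13.4 against 32.7, 55.9 and 53.5. KLF6 rose by 1.97 and MAFF, a small MAF protein, by 1.67. ATF3 and NUPR1 are not listed.

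Amino acid transporters rose in most listed members. Of 14 genes 9 rose and 1 fell (median log2 change 1.39, and 1.48 with the same counts without myricone C replicate 1). SLC7A11, which imports cystine, read 2.55, 2.42 and 2.50 in vehicle cells and 27.1, 35 and 25.6 in treated cells (change 3.10 ± 0.15, adjusted p = 2.44e-06), and replicate 1 lay within the other treated libraries. SLC6A9, a glycine transporter, read 3.42, 3.58 and 2.49 against 21.1, 27.3 and 34.1 (change 2.76 ± 0.18). The large neutral amino acid carrier rose in both of its chains, with SLC7A5 at 1.95 and SLC3A2 at 1.88. SLC1A5, the main glutamine importer, read 418, 367 and 379 against 367, 419 and 381, and its groups overlapped. The transporter that fell was SLC43A2, at -0.71, and its call was lost without vehicle replicate 2 and without myricone C replicate 2.

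The enzymes that make serine, glycine, asparagine and proline and that carry single carbon units mostly rose as well. Of 19 listed members 13 rose and 2 fell (median 0.99), and 14 rose and 2 fell without myricone C replicate 1 (median 1.15). ASNS, which makes asparagine, read 35.5, 41.8 and 44.8 in vehicle cells and 291, 460 and 514 in treated cells (change 3.31 ± 0.19, adjusted p = 4.91e-06). PCK2, the mitochondrial enzyme that turns oxaloacetate into phosphoenolpyruvate, changed by 2.26 ± 0.17, CTH, which makes cysteine, by 1.84 and PSAT1, of serine synthesis, by 1.75. The mitochondrial folate enzyme MTHFD2 rose by 1.55, while the cytosolic serine hydroxymethyltransferase SHMT1 read 28.0, 30.4 and 27.6 against 19.9, 14.9 and 19.2, a fall of -0.65 ± 0.13.

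Aminoacyl-tRNA synthetases load tRNA with amino acids, and separate genes serve the cytosol and the mitochondrion. Of 20 listed cytosolic synthetases 12 rose and none fell (median 0.93), while of 17 mitochondrial ones 7 fell and none rose (median -0.23). Of all genes 10.1% rose and 19.2% fell. WARS1, for tryptophan, read 69.4, 54.5 and 71.1 in vehicle cells and 217, 317 and 315 in treated cells (change 2.09 ± 0.16, adjusted p = 2.89e-05). CARS1, for cysteine, changed by 1.75 ± 0.13 and AARS1, for alanine, by 1.60 ± 0.13. The 8 cytosolic synthetases that did not pass ranged from -0.28 in QARS1, for glutamine, to 0.26 in FARSB, a chain of the phenylalanine enzyme. For isoleucine, the cytosolic IARS1 read 79.3, 66.3 and 85.2 against 147, 163 and 159, a rise of 1.02 ± 0.12, and the mitochondrial IARS2 read 76.9, 81.8 and 89.4 against 55.2, 45.3 and 46.9, a fall of -0.74 ± 0.12. For cysteine, CARS2 fell by 0.63 on the log2 scale. The cytosolic count was 12 whichever library was left out, whereas the mitochondrial count was 3 without vehicle replicate 1 or myricone C replicate 2, 4 without myricone C replicate 3 or after rescaling, and 5 or 6 without any of the others.

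Promoter sequence was read for genes with a window in RefSeq (GRCh38.p14, 300 bases, most of them upstream of the start), which 9157 SW48 genes have. The C/EBP-ATF element, searched as TGATGNAA on both strands, is the kind of site that ATF4 binds with a C/EBP partner. It was in 3.67% of all 27305 windows, 1.56% of those of SW48 genes, 3.57% of 925 genes that rose and 1.2% of 1828 genes that fell. Of the 16 cytosolic synthetases with a window 6 held it (AARS1, CARS1, IARS1, MARS1, NARS1 and TARS1), all of them among the 10 that rose, and none of the 6 not called did. This set was examined after its changes were seen, and matches of different elements were counted separately whether or not they overlapped. It was in 3 of 13 transporter windows, in 3 of 11 windows of the amino acid and one-carbon enzymes (ASNS, GOT1 and MTHFD1L) and in none of the 13 stress factors. A match is a description of these letters only. The stretches of 5 genes that rose are shown because they carry the element next to a measured rise, each in the direction of its gene with the element in capitals. They lie at chr15:40953242-40953289 (CHAC1, plus strand), chr7:97872449-97872496 (ASNS, minus strand), chr16:70289666-70289713 (AARS1, minus strand), chr9:92293683-92293730 (IARS1, minus strand) and chr10:99430795-99430842 (GOT1, minus strand).
CHAC1: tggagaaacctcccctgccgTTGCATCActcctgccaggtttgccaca
ASNS: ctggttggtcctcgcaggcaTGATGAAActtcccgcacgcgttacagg
AARS1: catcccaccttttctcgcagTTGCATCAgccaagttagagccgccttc
IARS1: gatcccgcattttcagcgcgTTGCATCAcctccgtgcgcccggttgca
GOT1: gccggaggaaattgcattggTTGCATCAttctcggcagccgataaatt

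Translation brakes rose in part of their list. Of 18 listed mTORC1 inhibitors and translation feedback genes 6 rose and none fell, beside 10.1% and 19.2% of all genes. The median was 0.01. DDIT4, an inhibitor of mTORC1, read 12.2, 13.8 and 11.9 in vehicle cells and 212, 440 and 528 in treated cells (change 4.75 ± 0.26). SESN2, a leucine-sensing inhibitor of mTORC1, read 4.82, 5.37 and 6.81 against 17.9, 36.4 and 28.7 (change 2.06 ± 0.22). PPP1R15A, the subunit that directs a phosphatase to eIF2, read 10.6, 9.48 and 8.11 against 24.6, 55.0 and 52.3 (change 2.04 ± 0.25).

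In the endoplasmic reticulum, a few lumenal chaperones rose strongly and most folding enzymes moved little. Of 25 listed chaperones and folding enzymes 10 rose and 3 fell (median 0.11), beside 10.1% and 19.2% of all genes. Under quantile normalization, median centring or rescaling 1 fell. In the fit without myricone C replicate 1, 10 rose and 2 fell (median 0.26). The rises numbered 6 without vehicle replicate 1 and 5 without vehicle replicate 3, myricone C replicate 2 or myricone C replicate 3, and at most 2 genes fell when any library was left out. HSPA5, the chaperone BiP, read 324, 398 and 325 in vehicle cells and 796, 1444 and 1674 in treated cells (change 1.84 ± 0.23, adjusted p = 0.000313). Its change was 2.16 without myricone C replicate 1. DNAJB9, a co-chaperone of BiP, changed by 1.86 ± 0.25 and HYOU1, its exchange factor, by 1.21. CALR, the calcium-binding lectin calreticulin, went the other way, from 484, 553 and 449 to 336, 393 and 343 (change -0.47 ± 0.12). HERPUD1, of the machinery that removes misfolded proteins, rose by 2.03 ± 0.26. Of 21 genes of that list 6 rose and 2 fell, beside the same shares of all genes. After quantile normalization and after rescaling 10 rose and 1 fell. The 2 that fell were OS9, a lectin that selects misfolded glycoproteins, at -0.60, and VCP, the ATPase that extracts them, at -0.31, and VCP lost its call under these 3 scalings and without any library other than myricone C replicate 1.

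The ER stress element, a site of ATF6, was searched as CCAAT, 9 bases of any kind, then CCACG on both strands. It was in 0.0806% of all windows and in 6 of 24 windows of the chaperone list, namely CALR, CANX, CRELD2, ERO1B, HSP90B1 and HSPA5. Its presence did not separate risen from fallen members, since HSPA5 rose and CALR fell. The stretches of this pair are shown for that contrast, at chr9:125241376-125241424 (HSPA5, minus strand) and chr19:12938369-12938417 (CALR, plus strand), with the element in capitals.
HSPA5: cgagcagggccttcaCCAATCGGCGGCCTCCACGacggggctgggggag
CALR: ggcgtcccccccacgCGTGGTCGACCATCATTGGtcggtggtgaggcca

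Genes of transport into and out of the endoplasmic reticulum also rose in part. Of 34 listed genes of translocation and vesicle coats 16 rose and 2 fell (median 0.31), beside 10.1% and 19.2% of all genes. SEC24D, a cargo adaptor of COPII vesicles, read 10.6, 12.9 and 11.3 in vehicle cells and 21.9, 29 and 29.9 in treated cells (change 1.14 ± 0.15). SEC23B and SRPRA, the receptor of the signal recognition particle, each rose by 0.78. The 2 that fell are protein subunits of that particle, which bind 7SL: SRP9 read 175, 192 and 218 against 112, 102 and 92.3 (change -0.92 ± 0.12), and SRP14 read 185, 160 and 186 against 120, 88.7 and 99.6 (change -0.78 ± 0.13). Both were lower in replicate 1 as well, where the 7SL signal was highest.

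Subunits of the respiratory chain were lower across all of its complexes. Of 38 listed subunits of complex I, which takes electrons from NADH, 33 fell and none rose (median log2 change -0.68). Of 39 listed genes of complexes II to V, which carry the electrons on and make ATP, 35 fell and none rose (median -0.70). NDUFB1, of complex I, read 175, 179 and 200 in vehicle cells and 90.0, 82.6 and 73.1 in treated cells (change -1.16 ± 0.12, adjusted p = 0.000119). ATP5MF, of the ATP synthase, read 681, 541 and 682 against 274, 238 and 240 (change -1.33 ± 0.12, adjusted p = 8.83e-05). COX6C, of cytochrome c oxidase, read 202, 178 and 196 against 96.9, 84.7 and 89.8 (change -1.08 ± 0.11). Replicate 1 was nearly as low as its partners, with list medians of -0.60 and -0.66 in that library alone. The soluble carrier CYCS did not follow, at 137, 97.7 and 165 against 118, 139 and 119. With each library left out in turn, 28 to 35 genes of complex I and 30 to 36 of complexes II to V fell. The fit without myricone C replicate 1 gave 34 falls in each list, with medians of -0.78 and -0.69.

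Many of these subunits have short transcripts, and short genes tended to fall. With genes divided into 5 equal classes by transcript length, 32.1% of the shortest class, from 359 to 1958 bases, fell and its median change was -0.24, against 9.0% and 0.03 in the longest class. The 26 complex I members in the shortest class had a median of -0.79 and the 27 members of complexes II to V of -0.68, while the 58 cytosolic ribosomal proteins there had a median of -0.23, which was also the median of all short genes outside the respiratory lists. The part of transcript length in the falls was not tested.

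Other mitochondrial genes moved in both directions. Of 78 mitochondrial ribosomal proteins 23 fell and 3 rose (median -0.25), 14 fell without vehicle replicate 3, and 5 rose after quantile normalization or rescaling. Of these proteins 58 are in the shortest class, of which 32.1% fell, and had a median of -0.31. MRPL27 changed by -1.05 ± 0.16 and MRPS10 by 0.61 ± 0.14. The matrix chaperone HSPA9 read 202, 159 and 216 in vehicle cells and 306, 445 and 438 in treated cells (change 1.03 ± 0.16), and the matrix protease LONP1 changed by 1.15 ± 0.17. The chaperonin cofactor HSPE1 read 370, 253 and 360 against 187, 147 and 156 (change -0.99 ± 0.16), while its partner HSPD1 did not pass, at 0.03. Of the 83 cytosolic ribosomal proteins 9 fell and none rose, beside 19.2% and 10.1% of all genes. Their falls numbered 15 after quantile normalization, 28 without myricone C replicate 3 and 4 or 5 without any other library.

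**Figure D4:**
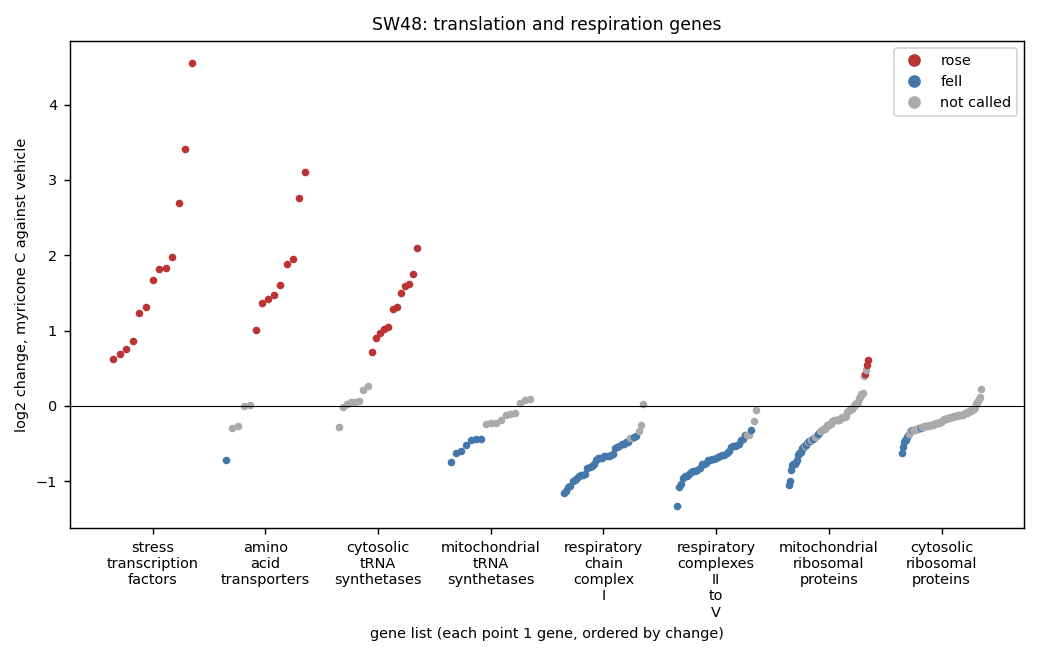
Log2 change of each gene (vertical axis) in 8 lists of stress factors, transporters, tRNA synthetases, respiratory subunits and ribosomal proteins, ordered by change within a list, with genes that rose in red, fell in blue and were not called in grey. Cytosolic tRNA synthetases reach 2.09 while mitochondrial ones lie at or below 0.09, and respiratory subunits run down to -1.33.

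Antioxidant targets of NRF2 mostly rose, while the wider glutathione list moved in both directions. Of 21 listed targets of this regulator 14 rose and 2 fell (median 0.86), and 14 rose and 3 fell without myricone C replicate 1 (median 0.77). FTH1, the heavy chain of the iron store ferritin, read 1235, 907 and 1342 in vehicle cells and 4238, 6627 and 7446 in treated cells (change 2.37 ± 0.21, adjusted p = 6.62e-05). SRXN1, which repairs peroxiredoxins, changed by 2.67 ± 0.23, and GCLC and GCLM, the chains of the first enzyme of glutathione synthesis, by 2.21 ± 0.19 and 1.22 ± 0.17. Across the whole glutathione list of 16 genes, 4 rose and 8 fell (median -0.39), beside 10.1% and 19.2% of all genes. However, 5 rose and 5 fell after quantile normalization, after median centring and after rescaling. GPX1, a glutathione peroxidase, read 212, 155 and 175 against 120, 101 and 128 (change -0.63 ± 0.14), GSTO1, a glutathione transferase, changed by -0.65, and GSS, the second enzyme of synthesis, by -0.50. The falls numbered 5 without vehicle replicate 3 and 4 without myricone C replicate 2. The NRF2 count of 14 rises was the same whichever library was left out. SQSTM1, an autophagy receptor, read 77.3, 60.3 and 66.9 against 242, 424 and 590 (change 2.52 ± 0.25).

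Immediate early genes and feedback genes of the MAPK pathway were higher in treated cells at 48 h. Of 33 listed members 19 rose and 1 fell (median 0.70), beside 10.1% and 19.2% of all genes. Without myricone C replicate 1, 23 rose and 2 fell (median 0.81). JUN, a subunit of the AP-1 factor, read 1.90, 1.48 and 1.11 in vehicle cells and 7.28, 31.4 and 19.4 in treated cells (change 2.83 ± 0.38, adjusted p = 0.000451). FOSL1, another subunit, read 49.6, 16.5 and 33.7 against 104, 199 and 182 (change 2.32 ± 0.34), and FOSB changed by 2.49 ± 0.25. EGR1 read 108, 71.6 and 83.0 against 157, 337 and 276 (change 1.49 ± 0.24). In all 4 genes replicate 1 lay between the vehicle libraries and its partners. The low value of FOSL1 in vehicle replicate 2 enlarges its change. The phosphatase DUSP4, which turns MAP kinases off, rose by 0.70, whereas DUSP6 passed only without replicate 1 (0.50, adjusted p = 0.039, against 0.36 and 0.13 with it). IER5 was the member that fell, at 22.7, 21.3 and 19.1 against 11.1, 11.5 and 10.5.

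Several keratin genes rose, and 1 vehicle library was low in them. KRT18, a keratin of simple epithelia, read 555, 235 and 553 in vehicle cells and 1076, 1609 and 1104 in treated cells (change 1.57 ± 0.29, adjusted p = 0.00237), and its partner KRT8 changed by 1.19 ± 0.26. KRT16, a keratin of stressed squamous epithelium, read 4.61, 1.47 and 4.79 against 24.5, 49.3 and 38.9 (change 3.11 ± 0.32). LCN2, a secreted iron-scavenging protein, read 50.5, 4.67 and 70.9 against 179, 440 and 155. Vehicle replicate 2 was the lowest of the 6 libraries in all 4 genes, and without it the change was 1.16 in KRT18, 0.84 in KRT8, 2.70 in KRT16 and 1.93 in LCN2 (3.07 with it). CLDN7, a tight junction protein, rose by 1.07. Over the 25 listed junction and keratin genes 8 rose and 1 fell (median 0.17), beside 10.1% and 19.2% of all genes.

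Colonic lineage factors moved in opposite directions. Of 28 intestinal lineage and differentiation genes only 10 were listed. Among these 3 rose, 3 fell and 4 were not called (median 0.22), beside 10.1% risen and 19.2% fallen of all genes. CDX2, the homeobox factor of intestinal identity, read 35.5, 38.0 and 28.7 in vehicle cells and 15.9, 10.3 and 9.45 in treated cells (change -1.47 ± 0.18, adjusted p = 0.000333). KLF4, a factor of differentiated epithelium, changed by -1.20 ± 0.14, and KLF5, a factor of proliferating crypt cells, read 77.8, 65.4 and 91.8 against 195, 361 and 282, a change of 1.79 ± 0.20. HNF4A did not pass, at 0.31.

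Some feedback inhibitors of the WNT pathway were among the falls. Of the 26 members of the list of feedback and target genes, 18 were in the table. Among these 7 fell and 1 rose (median -0.27), beside 19.2% and 10.1% of all genes. The other 10 were not called, among them the feedback inhibitor RNF43, at 0.14. The falls numbered 7 whichever library was left out. NOTUM, a secreted enzyme that inactivates WNT ligands, read 84.5, 166 and 63.8 in vehicle cells and 26.9, 8.81 and 10.0 in treated cells (change -2.75 ± 0.39). Its high value in vehicle replicate 2 enlarges that change. AXIN2, a feedback inhibitor, read 181, 251 and 178 against 99.1, 66.1 and 54.9 (change -1.48 ± 0.20). MYC, also counted among WNT targets, read 86.8, 61.6 and 83.7 against 113, 185 and 179, a rise of 1.01 ± 0.19.

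The ID genes encode inhibitors of basic helix-loop-helix factors and are driven by BMP signals. ID3 read 76.3, 157 and 63.5 in vehicle cells and 39.6, 10.5 and 28.8 in treated cells (change -1.94 ± 0.42), ID2 read 164, 137 and 128 against 89.4, 44.3 and 57.3 (change -1.21 ± 0.21), and ID1 changed by -0.87 ± 0.22. Vehicle and treated libraries did not overlap in any of the 3, as was the case in 5231 of all 11554 genes. For ID3, vehicle replicate 2 was the highest library, which enlarges its change. The inhibitory SMAD7 changed by -0.72 and the ligand BMP7 by -0.97. Over the list of 25 genes 7 fell and 2 rose (median -0.21), beside 19.2% and 10.1% of all genes.

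Genes of dividing cells fell almost throughout. Of 41 listed mitotic genes 40 fell and 1 rose (median -1.07), of 38 genes of DNA replication and nucleotide synthesis 35 fell (median -0.84), and of 21 genes of homologous recombination and checkpoints 16 fell (median -0.76). In the fit without myricone C replicate 1 these falls numbered 38, 35 and 16, with medians of -1.10, -0.91 and -0.77. SPC25, of the kinetochore, read 21.5, 22.4 and 26.5 in vehicle cells and 8.19, 4.96 and 6.44 in treated cells (change -1.72 ± 0.17). TK1, which salvages thymidine, read 97.1, 89.9 and 89.1 against 39.3, 26.4 and 33.5 (change -1.46 ± 0.14), and TIMELESS, which protects replication forks, read 23.7, 23.6 and 23.6 against 14.3, 8.42 and 10.3 (change -1.07 ± 0.17). CDKN2C, an inhibitor of CDK4 and CDK6, fell with them, at -1.94 ± 0.18. The licensing factors CDC6 and CDT1 did not follow, with 33.1, 25.1 and 38.5 against 28.6, 36.4 and 34.5 for CDC6 and overlapping groups in both. CDC25B was the mitotic gene that rose, at 0.39, and lost its call without vehicle replicate 2, vehicle replicate 3 or myricone C replicate 3.

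Among regulators of the G1/S step 13 of 21 listed genes fell and none rose (median -0.61). CDK2, the kinase of cyclin E, read 31.6, 31.7 and 35.6 against 15.7, 9.59 and 13.7 (change -1.30 ± 0.16), and CCNE2, a cyclin E, changed by -1.35 ± 0.23. Of 20 histone and variant genes 4 fell and none rose, a share of falls close to the 19.2% of all genes. Among the 4 were H2AZ2, which read 135, 156 and 153 against 80.2, 60.3 and 67.1 (change -1.09 ± 0.13), and H3-3A, at -1.08 ± 0.14. Both encode histone variants that are made outside S phase as well.

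The cell cycle element was searched as TTTGAA on both strands, the core of the site through which many mitotic promoters are held off outside division. It was in 15.4% of all windows, 9.22% of those of SW48 genes and 24 of 35 mitotic windows. Stretches of 2 mitotic genes that fell, PLK1 (-1.10) and CCNB2 (-1.15), are shown as examples, at chr16:23678840-23678885 and chr15:59105097-59105142, both on the plus strand, with the element in capitals.
PLK1: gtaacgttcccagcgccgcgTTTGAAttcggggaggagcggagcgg
CCNB2: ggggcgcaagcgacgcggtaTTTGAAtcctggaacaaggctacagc

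Tubulins, which form the spindle and the interphase microtubules, fell in 8 of 11 listed genes (median -0.56). TUBA1B read 373, 322 and 329 in vehicle cells and 153, 124 and 131 in treated cells (change -1.33 ± 0.12), and TUBA1A changed by -1.16 ± 0.15. TUBB2A read 25.7, 16.9 and 17.4 against 15.5, 24.0 and 21.3, with overlapping groups. Tubulin genes are close in sequence, so reads may be split between them.

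Neither ROCK kinase passed the test. ROCK1 read 9.96, 11.5 and 11.6 in vehicle cells and 12.8, 13.0 and 13.3 in treated cells (change 0.23 ± 0.12, adjusted p = 0.189), and ROCK2 read 17.7, 14.5 and 15.3 against 18.9, 14.3 and 11.8 (change -0.09 ± 0.17, adjusted p = 0.712). The changes without myricone C replicate 1 were 0.24 for ROCK1 and -0.26 for ROCK2, and neither passed (adjusted p = 0.236 and 0.217). All these are mRNA levels and say nothing of kinase activity. In the actomyosin list around them 3 of 31 listed genes rose and 10 fell (median -0.09), beside 10.1% and 19.2% of all genes. ARHGEF2, a guanine nucleotide exchange factor held on microtubules, read 8.78, 8.88 and 9.05 against 40.8, 63.1 and 53.5 (change 2.41 ± 0.15, adjusted p = 9.67e-06). CFL1, the actin-severing cofilin, read 626, 590 and 650 against 383, 263 and 280 (change -1.03 ± 0.14). Of 25 listed actins and targets of the serum response factor 10 fell and 2 rose (median -0.28), beside 19.2% and 10.1% of all genes. The rises numbered 1 without vehicle replicate 3 or any treated library. ACTB changed by -0.95 ± 0.14 and FHL2, a LIM-domain cofactor of that factor, by 2.04 ± 0.26.

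Cholesterol genes rose in much of the synthetic route. Of 31 listed members 14 rose and 2 fell (median 0.38), and 6 fell without replicate 1. INSIG1, which retains the sterol sensor in the endoplasmic reticulum, read 21.6, 26.9 and 26.3 in vehicle cells and 120, 184 and 104 in treated cells (change 2.36 ± 0.19). HMGCS1, an early enzyme, read 24.7, 26.8 and 28.8 against 63.5, 70.1 and 43.7 (change 1.09 ± 0.16), and MSMO1, a later one, changed by 1.18 ± 0.16. ACAT2, which makes acetoacetyl-CoA, was called only without replicate 1: it read 37.9, 34.7 and 40.3 against 40.3 in that library and 23.5 and 19 in the other treated pair.

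SCD, which makes monounsaturated fatty acids, read 104, 113 and 92.1 in vehicle cells and 332, 261 and 222 in treated cells (change 1.38 ± 0.15), the highest treated value being that of replicate 1. DGAT2, which completes triglycerides, read 5.98, 7.64 and 5.89 against 3.23, 1.54 and 2.35 (change -1.18 ± 0.19). Over 25 genes of fatty acid synthesis and storage 7 rose and 6 fell, beside 10.1% and 19.2% of all genes. Between 3 and 5 rose when any library was left out.

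Protein quality control outside the endoplasmic reticulum mostly fell or did not pass. Of 32 cytosolic chaperones 10 fell and none rose (median -0.22), beside 19.2% and 10.1% of all genes. That count of falls was 5 without vehicle replicate 3 and 7 after quantile normalization. HSPB1, a small heat shock protein, read 251, 194 and 168 in vehicle cells and 102, 62.2 and 101 in treated cells (change -1.22 ± 0.20). Of 37 proteasome subunits 13 fell and none rose (median -0.29), with 8 falls without vehicle replicate 1, 5 without vehicle replicate 3 and 7 after quantile normalization or rescaling. Of the 37, 23 are in the shortest class of transcripts and had a median of -0.29, and 32.1% of all genes in that class fell. The part of transcript length in these falls was not tested. PSMA2, of the core ring, changed by -0.71 ± 0.11. In the autophagy and lysosome list of 36 genes 5 rose and 9 fell, beside 10.1% and 19.2% of all genes. The risen genes are of the autophagosome, such as MAP1LC3B, a protein of its membrane, at 21.9, 24.2 and 22.6 against 45.6, 82.8 and 73.1 (change 1.47 ± 0.19). Among the fallen ones is CTSZ, a lysosomal protease, at 69.9, 76.9 and 63.7 against 39.5, 31.8 and 34.9 (change -0.97 ± 0.12), and the number of falls was 6 when replicate 2 or replicate 3 of either group was left out.

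Genes of cell death changed in single members. TNFRSF10B, a death receptor known as a target of CHOP, read 52.2, 33.1 and 50.7 in vehicle cells and 115, 167 and 186 in treated cells (change 1.76 ± 0.20, adjusted p = 0.000228). PMAIP1, a BH3-only protein, read 6.21, 3.71 and 5.90 against 10.3, 21 and 16.2 (change 1.39 ± 0.24). CASP6, an effector caspase, went from 23.8, 28.6 and 26.7 to 16.2, 15.2 and 15.4 (change -0.72 ± 0.12), and BIRC5, survivin, which also serves mitosis, changed by -1.45 ± 0.13. Over 22 listed pro-apoptotic genes 4 rose and 3 fell (median -0.02), beside 10.1% and 19.2% of all genes. The rises in this list numbered 2 without vehicle replicate 3 or without myricone C replicate 3. CDKN1A, the p53 target p21, read 125, 48.5 and 144 against 195, 253 and 184, and its rise of 1.11 (adjusted p = 0.0224) lost its call without myricone C replicate 2. Vehicle replicate 2 was the lowest of the 6 libraries in this gene, and without it the change was 0.63.

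VEGFA, the vascular growth factor, and NDRG1, which is induced by hypoxia and by other stress, had large rises while most of their list did not. VEGFA read 21.1, 19.1 and 16.5 in vehicle cells and 107, 172 and 160 in treated cells (change 2.86 ± 0.17, adjusted p = 7.35e-06), and NDRG1 changed by 3.81 ± 0.25. Of 27 hypoxia-type and glycolysis genes 8 rose and 3 fell (median 0.05), beside 10.1% and 19.2% of all genes. The rises numbered 5 without myricone C replicate 2. In the interferon list OAS3, an RNA sensor, fell by 1.02 on the log2 scale and IRF9, a factor of the interferon response, rose by 1.11. That list had 3 rises and 7 falls in 33 genes, shares close to the 10.1% and 19.2% of all genes, and 5 rises without myricone C replicate 1. Over 21 listed growth factor receptors and adaptors 4 rose, 3 fell and 14 were not called (median 0.04), beside the same shares of all genes. MET was the member with the largest change, at 12.2, 10.9 and 13.2 against 29, 40.7 and 24.1 (change 1.27 ± 0.18). In the Notch list of 13 genes 11 were not called (median -0.04). Its 1 rise was JAG1, a ligand, at 0.93, and its 1 fall was LFNG, which modifies the receptors, at -1.20.

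Host genes of small nucleolar RNA, whose spliced transcripts are mostly degraded as they are translated, rose in 11 of 18 listed cases (median 0.71). Without replicate 1 the count was 13 and the median 0.94, and in that library alone the median was 0.22. GAS5 read 188, 225 and 222 in vehicle cells and 368, 548 and 741 in treated cells (change 1.33 ± 0.21), and SNHG32 changed by 1.43 ± 0.21. SNHG12 read 45.5, 27.6 and 36.8 against 34.9 in replicate 1 and 77.1 and 85.8 in its partners, and passed only without replicate 1 (1.16, adjusted p = 0.000633). DANCR fell, at -0.59. Long noncoding genes as a class, 518 in number, took 1.09% ± 0.0278 (SD, n = 3) of the signal in vehicle cells and 1.65% ± 0.17 (SD, n = 3) in treated cells, with no overlap (exact permutation p = 0.1, the smallest possible). The 16 mitochondrial pseudogenes, which can take reads of mitochondrial transcripts, took 17.2% ± 0.843 (SD, n = 3) against 14.4% ± 0.929 (SD, n = 3), also without overlap (exact permutation p = 0.1).

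**Figure D5:**
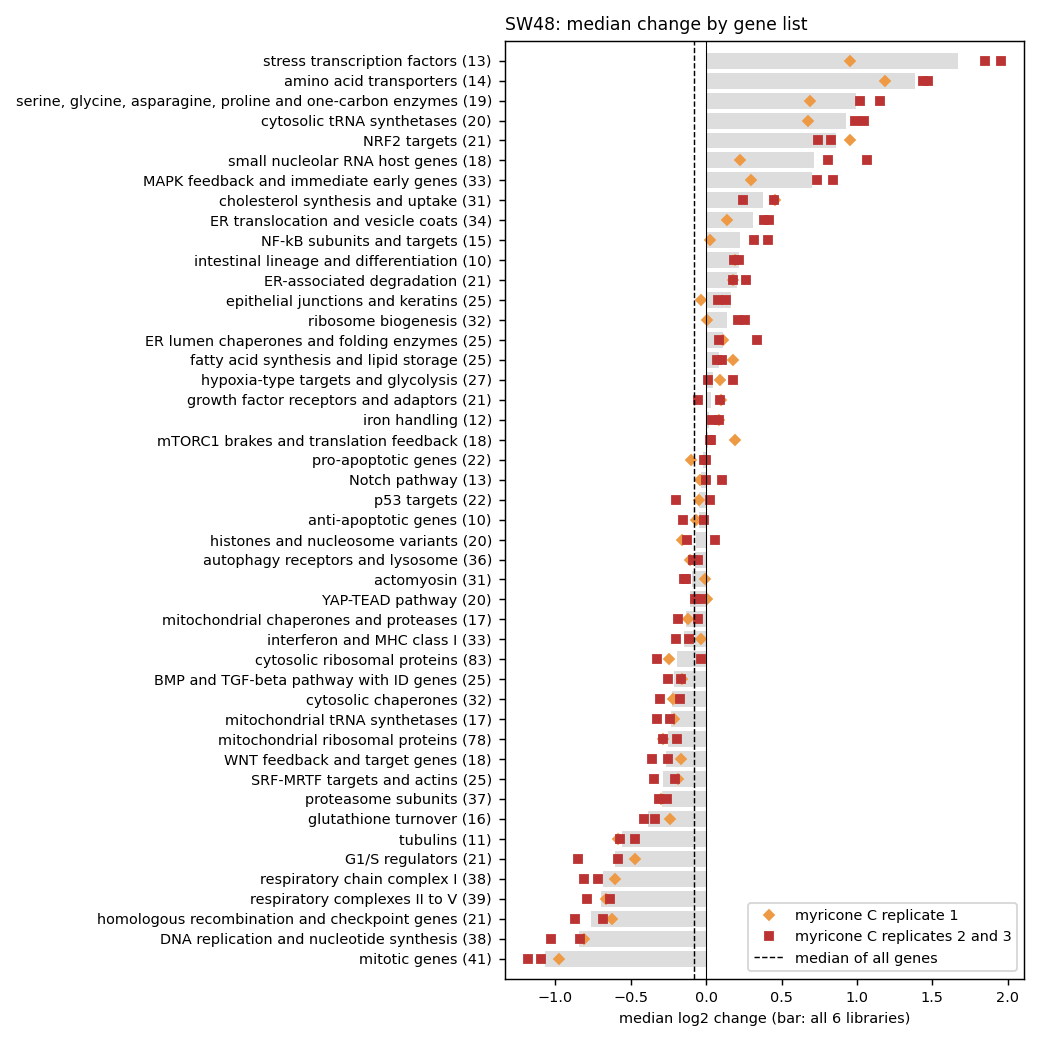
Median log2 change of each gene list with at least 10 listed genes (grey bars, all 6 libraries, with the number of genes in brackets), and the median in myricone C replicate 1 (orange) and in replicates 2 and 3 (red), beside the median of all genes (dashed, -0.08). Stress factors (1.67) and mitotic genes (-1.07) lie at the ends, and replicate 1 is nearest to 0 among the treated libraries in both.

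Of the 1302 genes not listed for the gastric line, 349 changed (26.8%, beside 29.3% of the whole table), 122 upward and 227 downward. EREG, a ligand of the EGF receptor, read 12.0, 7.65 and 12.5 in vehicle cells and 43.3, 91.0 and 62.5 in treated cells (change 2.47 ± 0.24, adjusted p = 0.000116). GEM, a small GTP-binding protein, changed by 2.49 ± 0.35, and IGFBP3, which binds insulin-like growth factors, read 3.10, 2.05 and 4.04 against 14.3, 41.6 and 13.5 (change 2.41 ± 0.35). On the falling side SCARA3, a scavenger receptor, read 15.1, 14.0 and 11.5 against 4.55, 2.43 and 2.64 (change -1.81 ± 0.19), and NRGN, a calmodulin-binding protein known from neurons, changed by -1.68 ± 0.19.

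The genes called only without replicate 1 show where that library and its partners parted. ISG15, a ubiquitin-like protein induced by interferon, read 9.00, 10.2 and 8.29 in vehicle cells, 4.93 in replicate 1, and 22.3 and 22.7 in replicates 2 and 3, so that its change of 0.55 (adjusted p = 0.347) became 1.21 (adjusted p = 0.000118). BPGM, a phosphoglycerate mutase known from red cells, read 9.26, 14.6 and 12.9 against 12.9 in replicate 1 and 5.44 and 8.18 in the others. Among the genes called only with replicate 1, TSPAN8, a membrane protein of the gut, read 10.0, 18.6 and 12.8 against 6.21, 6.44 and 11.5, with a change of -0.72 (adjusted p = 0.0453) that became -0.58 (adjusted p = 0.106). KLK7, a secreted protease, went from 0.63 (adjusted p = 0.0495) to 0.60 (adjusted p = 0.0774) and to 0.34 without vehicle replicate 2.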

How the data were processed

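A stranded mRNA kit is named in the labels' protocols, and FastQC, STAR and the build GRCh38 in the submitters' processing notes, without versions. Not given in the sources used here are the quantifier, the annotation and the unit. What the authors deposited is 1 expression signal for each gene and library, scaled like FPKM or TPM from its values, which keeps no read depth. All 11554 genes were kept, log2 transformed after adding 1 and fitted with limma 3.58.1 in R 4.3.3 (mean-variance trend, Benjamini-Hochberg adjustment, threshold 0.05) on the 6 SW48 libraries without covariates, as tested on simulated data. Errors of changes are moderated standard errors, and changes of low genes are understated on this scale. P-values measure the spread between these cultures, labelled as biological replicates. Lists were described by counts and medians, without set tests. The members and gene lists were chosen with earlier results of these data known. Named genes were drawn from the 12 largest rises and falls (mean at least 10) and the 3 largest called members of each list. Further sources were the 6 largest each way among genes not listed for the gastric line (mean at least 5) and the 4 largest each way gained or lost without myricone C replicate 1. ROCK1, ROCK2, DDIT3, ATF4, HSPA5 and the small RNAs were also chosen in advance. Not all genes of these sets are named, and the 10 highest genes, also selected, are not. Other genes were chosen after their values were seen. Lengths come from GENCODE release 29 and promoter windows from RefSeq. Alternatives were scaling, filter, pseudocount, trend, array weights, a replicate block and each library left out. A few items are not reported here.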

Additional observations from a re-analysis of the deposited data

How the results depend on the processing

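Counts of changed genes kept within 1.5 times of 3383 under quantile normalization, median centring, rescaling, array weights, no trend and pseudocounts of 0.1 and 5. They did so under a stricter filter as well (a signal of 10 or more in 3 or more libraries). The setting without a filter is the main fit itself, which kept all genes, so its identical values test nothing. Genes past a log2 change of 1 numbered 552, 283 with a pseudocount of 5 and 728 with 0.1. Among genes not listed for the gastric line, 121 changed under the stricter filter, which tests fewer genes. Leaving out 1 library at a time gave 2199 to 3656 changed genes, 768 to 1333 risen, 1431 to 2323 fallen, 419 to 770 changed by at least 1, and 220 to 383 of those not listed for the gastric line. The lowest of each of these ranges came without myricone C replicate 2, among them 2199, 768, 1431 and 220. The difference in the share of small RNA was 1.67 percentage points, from -0.0530 without myricone C replicate 1 to 2.55 without replicate 3. Deviations of libraries with the same title number had correlations of -0.073, -0.175 and -0.138. A replicate block on title numbers gave 2811 changed genes (980 risen, 1831 fallen). Numbers in the column names differ from those in the titles for treated cells and share only 2 pairs (0.152 and 0.271). These were the highest correlations of any vehicle and treated library, with 0.132 the next. A replicate block on the column numbers, fitted on the libraries of those pairs alone, gave 2596 changed genes (832 risen, 1764 fallen). Whether the title or the column numbers mark a pairing was not tested, and the main fit used neither. No called direction reversed, and the sign of the small RNA difference, which was not called, rests on myricone C replicate 1. Depth is unknown, so no limit from counting is given.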
